A study of Mus musculus with 8 samples.

Results

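Resp18, Fev, Scg2, Cryba2 and Ptprn are 5 genes of the secretory granules and the transcription programme of hormone-producing cells, and their rows were read in every cell barcode of a single-cell RNA table from mouse stomach glands. They were given by name, with earlier results of these data known, and are 5 of the 779 genes of the table. Of 1460 barcodes, 55 held a unique molecular identifier (UMI, one counted RNA molecule) of at least 1 of the 5. These 55 fell into 31 barcodes with Ptprn and none of the other 4, called Ptprn-only barcodes below, and 24 barcodes with Resp18, Fev, Scg2 or Cryba2, called 4-gene barcodes. The remaining 1405 barcodes had none of the 5. The question was whether the Ptprn-only barcodes resembled the 4-gene barcodes in all other genes or formed another kind.

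All cells came from mouse stomach glands of the genotype Atp4bCre; Rosa26NICD; Arid1aflox/flox at 23 weeks of age. The labels list 8 samples of this 1 genotype, each as a numbered stomach gland of a mouse. They do not say whether each is from a separate animal. Cre is driven by the promoter of Atp4b, the gene of a subunit of the parietal cell proton pump, so that in cells of that lineage the Notch intracellular domain is switched on from Rosa26 and the floxed part of Arid1a, a subunit gene of a chromatin remodelling complex, is removed. Every cell compared here carries these alleles, and no other genotype was analysed here. Cells were sorted for high EPCAM, a surface protein of epithelial cells, and low Sytox Blue, a dye that enters dead cells, and were processed on the droplet-based 10x platform.

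Hormone-producing cells of the gut and stomach are scattered singly among the other epithelial cells. They store peptide hormones in dense-core granules and release them on stimulation, and granins help to pack the granules. Scg2 encodes secretogranin II, a granin that is cut into smaller peptides. Resp18 encodes a protein of the regulated secretory pathway of endocrine and nerve cells. Ptprn encodes IA-2, a granule membrane protein with a phosphatase-like domain, known as an autoantigen in type 1 diabetes, whose luminal part holds a domain named after its likeness to RESP18. Fev encodes an ETS transcription factor of serotonin neurons and of enteroendocrine cells, and Cryba2 encodes a beta crystallin, of a family named for the lens.

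The table held 444786 UMIs with a median of 279 per barcode (2 to 1082), from 418 genes with at least 1 UMI. Of the 779 genes, 711 matched the annotation of chromosome 1, the only chromosome searched. These totals are thus not library depth, and 40.2% of the UMIs belong to the ribosomal protein genes Rpl37a, Rpl7 and Rpl31. The barcodes carry no sample name, so the table counts as 1 sample with no replicates. No p-value is given, and all intervals are exact 95% intervals for counting error only, which are too narrow where a few barcodes hold most UMIs. All 1460 barcodes are different, and doublets, droplets with more than 1 cell, were not removed.

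The 5 genes lie on the minus strand of chromosome 1 (GRCm38): Fev at 74881509 to 74885419, Cryba2 at 74889934 to 74893143, Ptprn at 75247027 to 75264502, Resp18 at 75272199 to 75278415 and Scg2 at 79434669 to 79440120. Fev and Cryba2 are 4514 bases apart and Ptprn and Resp18 7696 bases. The annotation places the antisense genes Gm28902 and Gm28294 over Resp18 and Ptprn. Whether reads were counted by strand is not given in the sources used here, so reads of such a pair cannot be told apart. The sequences around the starts of Resp18, Cryba2 and Ptprn are shown because these genes chose most of the barcodes compared below. Each runs from 250 bases before the gene's start to 50 after it, 5′ to 3′ on the minus strand, from RefSeq on GRCm38.p6 (chr1:75278366-75278665 for Resp18, chr1:74893094-74893393 for Cryba2, and chr1:75264159-75264458 for the upstream one of 2 Ptprn starts).

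Resp18: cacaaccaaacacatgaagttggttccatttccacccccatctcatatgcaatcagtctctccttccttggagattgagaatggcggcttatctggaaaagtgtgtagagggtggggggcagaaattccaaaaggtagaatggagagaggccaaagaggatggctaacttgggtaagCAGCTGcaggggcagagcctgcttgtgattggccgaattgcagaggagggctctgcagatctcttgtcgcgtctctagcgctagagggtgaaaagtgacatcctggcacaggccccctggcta
Cryba2: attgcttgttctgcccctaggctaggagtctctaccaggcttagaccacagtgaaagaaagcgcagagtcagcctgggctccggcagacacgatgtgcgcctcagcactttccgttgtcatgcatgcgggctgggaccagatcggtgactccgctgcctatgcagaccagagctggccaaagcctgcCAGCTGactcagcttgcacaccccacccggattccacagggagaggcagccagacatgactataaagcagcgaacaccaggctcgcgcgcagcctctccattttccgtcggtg
Ptprn: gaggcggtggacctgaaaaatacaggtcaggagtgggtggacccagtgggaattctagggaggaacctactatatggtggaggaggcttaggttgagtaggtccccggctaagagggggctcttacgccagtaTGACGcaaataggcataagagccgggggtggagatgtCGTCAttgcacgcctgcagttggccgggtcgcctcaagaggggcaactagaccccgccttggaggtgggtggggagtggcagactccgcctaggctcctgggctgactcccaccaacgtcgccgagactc

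Capitals mark CAGCTG, an E-box of the kind that basic helix-loop-helix factors can bind, and TGACG or its reverse complement CGTCA, the core of cyclic AMP response elements. Both strands were searched. Resp18 and Cryba2 held CAGCTG 1 time each, and 16.3% of 32851 promoters of the same length hold it. The upstream Ptprn start held TGACG in 1 place and CGTCA in another, 20.8% of the promoters hold either, and the second Ptprn start held neither motif. The Scg2 window held both in a single overlapping run, and the Fev window held neither motif.

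Resp18 had 75 UMIs in 14 barcodes, and its level was 169 CPM (the gene's UMIs over all UMIs of the table, times 1000000; interval 133 to 211). The UMIs sat in few cells: 3 barcodes held 60 of them (80%), 9 barcodes had 1 UMI each and 5 had 2 or more. Resp18 was thus seen in 0.959% of barcodes (interval 0.525% to 1.60%). Fev had 16 UMIs in 4 barcodes, 11 of them in 1 barcode (36.0 CPM, interval 20.6 to 58.4). Scg2 had 13 UMIs in 2 barcodes (29.2 CPM, interval 15.6 to 49.98).

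Cryba2 and Ptprn were spread more evenly. Cryba2 had 18 UMIs in 12 barcodes (40.5 CPM, interval 24.0 to 64.0), with 6 in 1 barcode and a single UMI in 10. Ptprn had 113 UMIs in 40 barcodes (254 CPM, interval 209 to 305), and its 3 highest barcodes held 29 UMIs (25.7%). The highest Ptprn count was 13, and 24 of the 40 barcodes had 2 or more. Ptprn was seen in 2.74% of barcodes (interval 1.96% to 3.71%), and the median total was 394 UMIs in barcodes with Ptprn, against 277 in barcodes without it.

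The genes shared barcodes unequally. All 4 barcodes with Fev and both barcodes with Scg2 also had Resp18, which is 28.6% and 14.3% of the 14 Resp18 barcodes. Ptprn was in 9 of the 14 Resp18 barcodes (64.3%), which is 22.5% of its own 40. Cryba2 shared 2 barcodes with Resp18 and 2 with Ptprn, which is 16.7% of its 12 barcodes in each case. Ptprn was seen in 9 of 24 4-gene barcodes (37.5%, interval 18.8% to 59.4%; median total 313), against 31 of 1436 barcodes without those genes (2.16%, interval 1.47% to 3.05%; median total 279). The share with Ptprn grew with the barcode total, at 0.995% of barcodes under 200 UMIs, 2.25% of those from 200 to under 400 and 5.78% of those with 400 or more. In the same bands Ptprn was in 3 of 9, 2 of 6 and 4 of 9 4-gene barcodes (33.3%, 33.3% and 44.4%). The intervals were wide, at 7.49% to 70.1%, 4.33% to 77.7% and 13.7% to 78.8%. Among barcodes without the 4 genes it was in 1 of 393, 14 of 706 and 16 of 337 (0.254%, 1.98% and 4.75%).

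**Figure D1:**
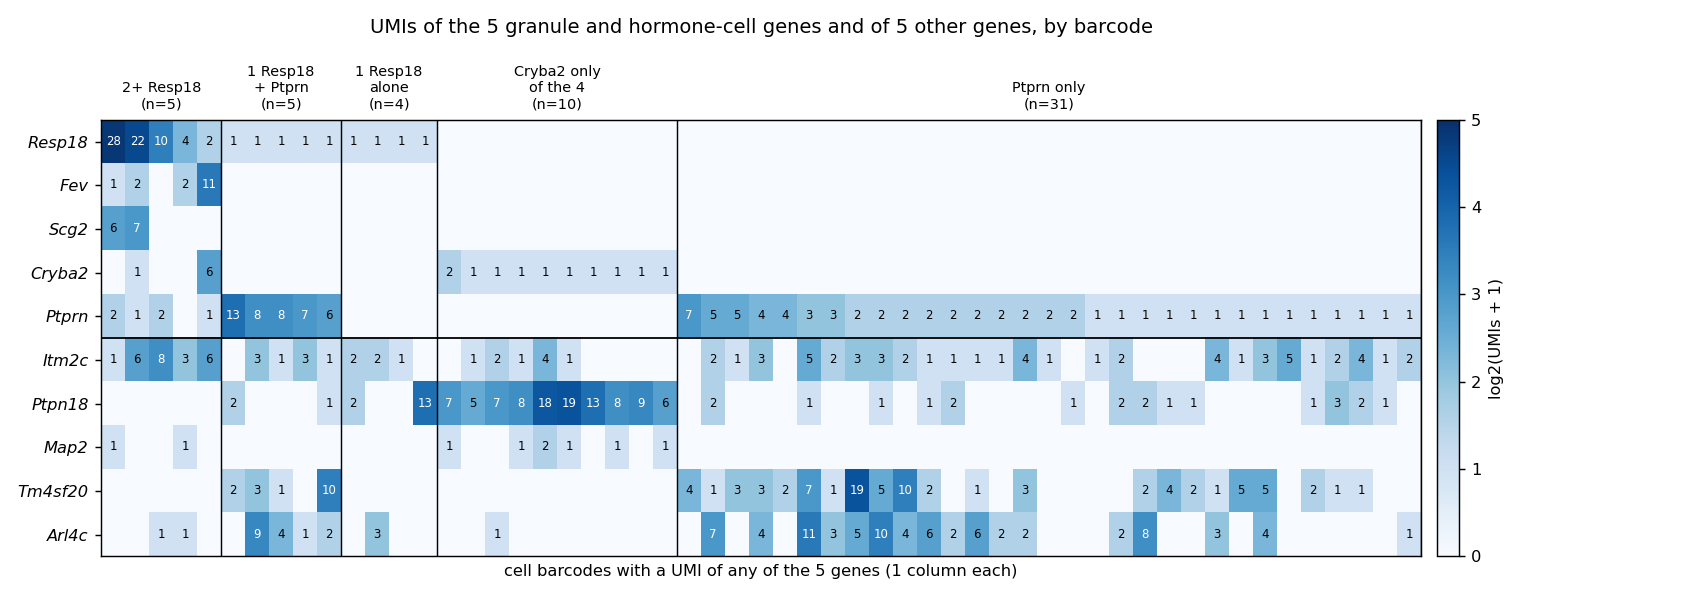
UMIs of the 5 genes (upper rows) and of 5 other genes (lower rows) in the 55 barcodes with any of the 5, 1 barcode a column, grouped by kind; numbers are UMIs and colour is log2(UMIs + 1). All 16 Fev and 13 Scg2 UMIs sit in the 5 barcodes with 2 or more Resp18 UMIs, and each of the 10 barcodes with Cryba2 as the only 1 of the 4 holds 5 or more Ptpn18 UMIs.

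The 24 4-gene barcodes were not 1 kind. Split by their counts, a split chosen after the values were seen, they held 5 barcodes with 2 or more Resp18 UMIs, 5 with 1 Resp18 UMI together with Ptprn, 4 with 1 Resp18 UMI and no Ptprn, and 10 in which Cryba2 was the only 1 of the 4. Their median totals were 187, 513, 326.5 and 240.5 UMIs. The chart of UMIs by barcode shows that these kinds carried different other genes.

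The 5 barcodes with 2 or more Resp18 UMIs are called Resp18-rich below. They had 28, 22, 10, 4 and 2 Resp18 UMIs, which was 15.0%, 16.7%, 7.35%, 1.86% and 0.633% of their totals. The name follows the count and not the share, as 1 barcode with a single Resp18 UMI had 1.23%, above the last of the 5. The 5 barcodes are small, with 187, 132, 136, 215 and 316 UMIs in all. In the same order they had 1, 2, 0, 2 and 11 Fev UMIs, so the barcode with fewest Resp18 UMIs of the 5 had the most Fev. Scg2 was in the first (6 UMIs) and the second (7 UMIs) and was not detected in the other 3. Cryba2 had 0, 1, 0, 0 and 6 UMIs, highest where Fev was highest. Ptprn had 2, 1, 2, 0 and 1 UMIs, so 4 of the 5 held it (80%, interval 28.4% to 99.5%) and none had more than 2.

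The Resp18-rich barcodes also held every UMI of Cdk5r2, which encodes an activator of the kinase Cdk5 best known in neurons. Cdk5r2 lies 23776 bases from Fev and had 3 UMIs in the table, 2 in the fourth of these barcodes and 1 in the fifth. Of 32 enteroendocrine markers listed, the 5 genes and Cdk5r2 have a row in the table. The 5 chose the barcodes, so Cdk5r2 is the only one of these markers not used in that choice. It rests on 3 UMIs, and the list was chosen with earlier results of these data known. No cell type name is given to these barcodes, because a name needs 3 independent markers. Of 16 genes listed for granules and peptide processing, 6 have a row and none reached the 30 UMIs required for a ratio. Of these, Nppc, a natriuretic peptide gene with 15 UMIs, and Inha, an inhibin subunit gene with 10 UMIs, had 0 in both the Ptprn-only and the 4-gene barcodes.

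Other genes were compared as ratios of summed UMIs over the UMIs of all genes but the 5, and a gene was counted as past 2-fold where the ratio was at least 2 or at most 0.5, its interval did not hold 1 and the compared barcodes had at least 30 UMIs. In the Resp18-rich barcodes over those with none of the 5, 20 of 260 genes were higher (7.69%) and 2 were lower (0.769%). The small size of the group limits the second count. At 0 UMIs the upper bound of a level in these 5 barcodes is 4201 CPM. Genes below about that level in barcodes with none could thus not be counted as lower, while 2 UMIs could be enough for a higher one. In the other kinds of 4-gene barcode that bound is 1368 to 3116 CPM, with the same limit. Itm2c, a membrane protein gene of the BRI family, had 1, 6, 8, 3 and 6 UMIs in the 5 barcodes. Its level was 27335 CPM there, against 3864 CPM in barcodes with none (ratio 7.07, interval 4.52 to 10.6). Every Resp18-rich barcode thus held Itm2c, as did 877 of 1405 barcodes with none.

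Further genes higher in the Resp18-rich barcodes rested on few UMIs. Dst, which encodes the cytoskeletal linker dystonin, had 5 UMIs in 3 of them (ratio 11.3, interval 3.63 to 26.7) and Clk1, a kinase of splicing factors, 8 UMIs in 4 (ratio 4.31, interval 1.85 to 8.52). Map2, a microtubule protein gene of neurons, had 2 UMIs in 2 barcodes (ratio 24.8, interval 2.90 to 95.6). Rdh10, a retinol dehydrogenase gene, and Gsta3, a glutathione transferase gene, were the 2 lower ones. Each had 0 UMIs in all 5 barcodes, against 3429 Rdh10 and 5865 Gsta3 UMIs in barcodes with none. With 3 UMIs over the 5 barcodes taken as the floor, Rdh10 was 2.37-fold and Gsta3 4.05-fold lower. Among barcodes under 250 UMIs, which include 4 of the 5, the upper bounds of the ratios were 0.753 for Rdh10 and 0.626 for Gsta3. From 250 to under 450 UMIs, with 1 Resp18-rich barcode, they were 1.46 and 0.861.

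The 10 barcodes with Cryba2 as the only 1 of the 4 carried another set of genes. All 10 held Ptpn18, a tyrosine phosphatase gene, with 7, 5, 7, 8, 18, 19, 13, 8, 9 and 6 UMIs. Its level was 37078 CPM there, against 2225 CPM in barcodes with none (ratio 16.7, interval 13.4 to 20.5). Inpp5d, the gene of the inositol phosphatase SHIP1, had 9 UMIs in 3 of the 10 (ratio 23.6, interval 10.3 to 47.8) and Map2 7 UMIs in 6 (ratio 28.2, interval 10.6 to 63.8). Ptpn18 and Inpp5d are the 2 of 12 listed tuft cell markers with a row in the table, 1 fewer than a name needs. Tuft cells are chemosensory epithelial cells.

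In all, 14 of 261 genes were higher (5.36%) and 3 lower (1.15%) in the Cryba2-only barcodes over those with none. Vil1, the gene of the brush-border protein villin, had 31 UMIs in 9 of them (ratio 2.95, interval 1.99 to 4.20). Fam117b was higher at a ratio of 5.45 (interval 3.09 to 8.95), but all 16 of its UMIs were in 3 barcodes. Gsta3 was lower (ratio 0.214, interval 0.0925 to 0.423), as was Arl4c, a small GTPase gene with 1 UMI (ratio 0.162, interval 0.00410 to 0.906).

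Seen from Ptpn18, Cryba2 was in 10 of 44 barcodes with 5 or more Ptpn18 UMIs (22.7%, interval 11.5% to 37.8%; median total 250), against 2 of 1416 with fewer (0.141%, interval 0.0171% to 0.509%; median total 280), and those 2 were Resp18-rich. With 3 or more Ptpn18 UMIs as the bound the share was 10 of 81 (12.3%), and with 8 or more 6 of 20 (30%). The lowest Ptpn18 count of the 10 Cryba2-only barcodes is 5, so the bounds of 5 and 3 take in all 10 of them. The Cryba2 shares at those bounds are thus a description of these barcodes and no comparison. Ptprn was in 0 of the 44, against 40 of 1416 (2.82%). With 3 barcodes taken as the limit of a count of 0, 0 of 44 allows a share of up to 6.82% (upper Clopper-Pearson bound 8.04%), so a lower share in the 44 was not detectable at this depth. Resp18 was in 1 of the 44 (2.27%) and 13 of 1416 (0.918%), and these intervals overlap.

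Set directly against the Cryba2-only barcodes, the Resp18-rich ones differed in 2 of 17 genes with enough UMIs, 1 higher (5.88%) and 1 lower (5.88%). Itm2c was 8.19-fold higher (interval 3.68 to 20.02), with UMIs in 5 of 5 Resp18-rich and 5 of 10 Cryba2-only barcodes. Ptpn18 had 0 UMIs in the Resp18-rich barcodes, against 100 in the Cryba2-only ones (upper bound of the ratio 0.115). It was 10.9-fold lower at the floor of 3 UMIs.

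Of the 4 barcodes with 1 Resp18 UMI and no Ptprn, 1 had 13 Ptpn18 and 5 Inpp5d UMIs in a total of 81, and the other 3 had 2, 0 and 0 Ptpn18 UMIs. Over barcodes with none, 9 of 260 genes were higher (3.46%) and 0 lower in these 4. Among 1420 barcodes without Ptprn, 4 had exactly 1 Resp18 UMI (0.282%, interval 0.0768% to 0.720%).

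Ptprn-only barcodes had 7, 5, 5, 4, 4, 3 and 3 Ptprn UMIs in the 7 highest, 2 in 10 barcodes and 1 in 14, with a median total of 400 UMIs (129 to 781), against 313 (64 to 678) in 4-gene barcodes and 277 (2 to 1082) in barcodes with none. Over barcodes with none, 11 of 261 genes were higher (4.21%) and 12 lower (4.6%). The highest ratio was that of Tm4sf20, which encodes a transmembrane protein of the L6 family. It had 84 UMIs in 22 of the 31 Ptprn-only barcodes, with a median of 2 and a highest count of 19, against 343 UMIs in 158 of 1405 barcodes with none. Its level was 6289 CPM in Ptprn-only barcodes, against 809 CPM in barcodes with none (ratio 7.77, interval 6.05 to 9.89).

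Other genes were higher in Ptprn-only barcodes beside Tm4sf20. Slc39a10, a zinc importer gene, was in 19 of 31 Ptprn-only barcodes, against 199 of 1405 with none (ratio 3.67, interval 2.39 to 5.44), and no barcode had more than 3 of its 28 UMIs. Arl4c was in 17 of 31, against 423 of 1405 (ratio 2.62, interval 2.06 to 3.29). Il1r1, the interleukin 1 receptor gene, was in 14 of 31, against 234 of 1405 (ratio 2.62, interval 1.70 to 3.88). Dst was in 15 of 31, against 172 of 1405 (ratio 3.41, interval 2.12 to 5.25), and was thus higher in both the Ptprn-only and the Resp18-rich barcodes, which share the barcodes they are set against.

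Snhg6, a host gene of small nucleolar RNAs, was at 6214 CPM in Ptprn-only barcodes, against 2562 CPM in barcodes with none (ratio 2.43, interval 1.92 to 3.03). Nhej1, a DNA repair gene, had a ratio of 2.91 (interval 1.29 to 5.76) on 9 UMIs in Ptprn-only barcodes. Gm3940 had 11 UMIs (ratio 2.34, interval 1.14 to 4.31) and Tmem194b 4 UMIs (ratio 4.09, interval 1.05 to 11.6). Alpi, the intestinal alkaline phosphatase gene, had a ratio of 4.99 (interval 3.35 to 7.22), but 3 barcodes held 30 of its 33 UMIs. Rdh10, which stayed under 2-fold, was at 14973 CPM in Ptprn-only barcodes, against 8089 CPM in barcodes with none (ratio 1.85, interval 1.60 to 2.14).

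Among the lower genes, Klf7, a transcription factor gene, had 1 UMI in Ptprn-only barcodes, against 316 UMIs in barcodes with none (ratio 0.100, interval 0.00253 to 0.564). Hjurp, the centromere histone chaperone, had 1 UMI, against 307 (ratio 0.103, interval 0.00261 to 0.580), and Fn1, fibronectin, 3 UMIs, against 482 (ratio 0.198, interval 0.0406 to 0.581). Acadl, a mitochondrial fatty acid oxidation gene, had 20 UMIs, against 1440 (ratio 0.441, interval 0.268 to 0.683). Bcs1l and Lancl1 had 1 UMI each in Ptprn-only barcodes, against 251 and 235. Pde6d and 2810459M11Rik had 4 each, against 389 and 373, and Fam117b 6, against 461. Pard3b, a cell polarity gene, had 0, against 143, and was 1.502-fold lower at the floor of 3 UMIs. Of 4 measured cycling genes, 0 were higher and 1, Hjurp, was lower, beside 4.21% and 4.6% of all genes compared. Mcm3, a replication helicase gene, was at 749 CPM in Ptprn-only barcodes, against 799.7 CPM in barcodes with none.

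**Figure D2:**
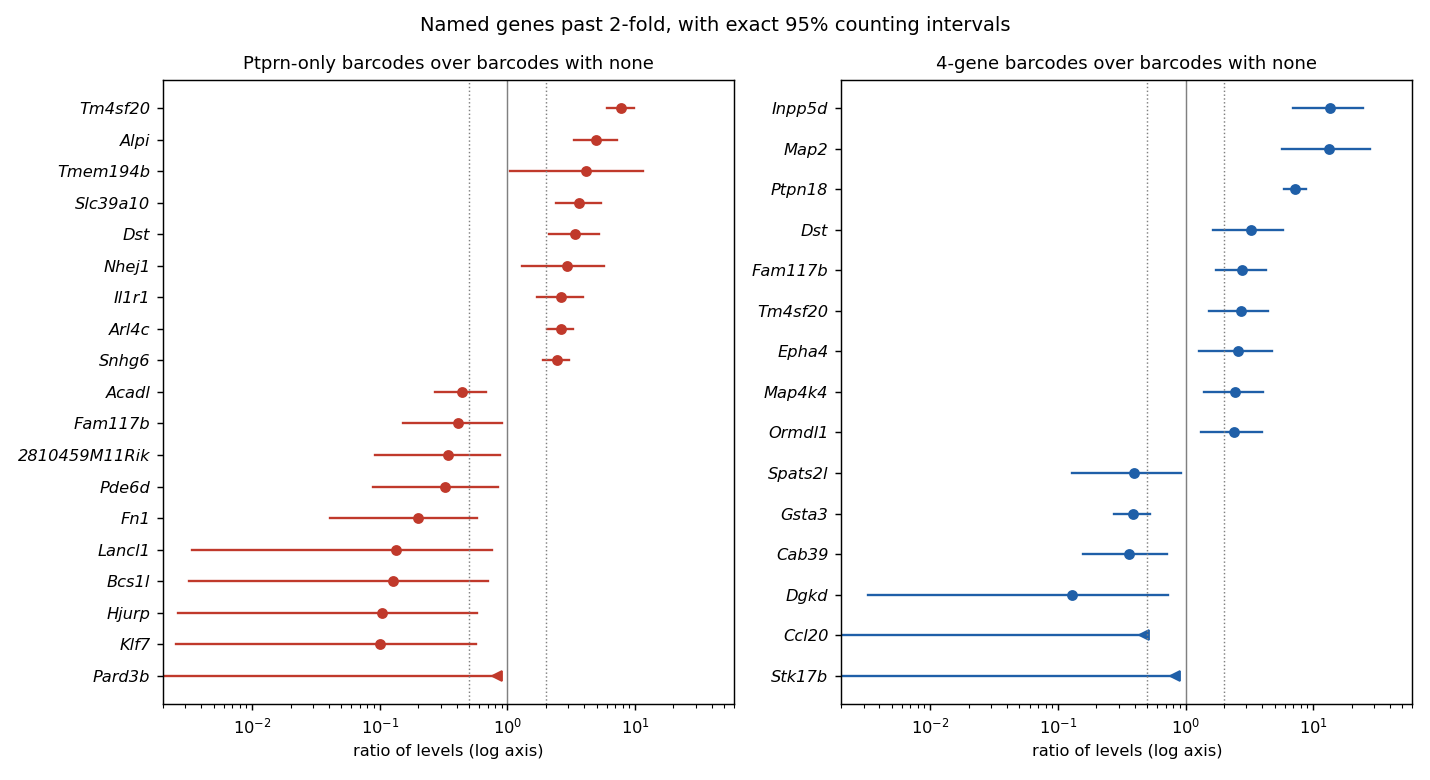
Ratios of levels for named genes past 2-fold (of the higher ones, the 9 with the highest ratio) in Ptprn-only barcodes (left) and 4-gene barcodes (right) over barcodes with none of the 5, on a log axis, with exact 95% counting intervals; a triangle marks the upper bound of a gene with 0 UMIs in the barcodes compared. Tm4sf20 is at 7.77 in Ptprn-only barcodes, and Inpp5d, Map2 and Ptpn18 are at 13.5, 13.4 and 7.26 in 4-gene barcodes.

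In 4-gene barcodes over barcodes with none, 16 of 261 genes were higher (6.13%) and 6 lower (2.3%). Inpp5d (ratio 13.5, interval 6.98 to 24.5), Map2 (ratio 13.4, interval 5.70 to 28.1) and Ptpn18 (ratio 7.26, interval 5.94 to 8.80) were highest. For Ptpn18, 100 of the 118 UMIs were in the Cryba2-only barcodes. Dst had a ratio of 3.25, Fam117b 2.77, Tm4sf20 2.71, Epha4, an ephrin receptor gene, 2.59, Map4k4 2.46 and Ormdl1 2.40. All 16 Tm4sf20 UMIs were in the 5 barcodes with 1 Resp18 UMI and Ptprn. Without the Cryba2-only barcodes 14 genes were past 2-fold, 11 of them among the 22.

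Lower genes in 4-gene barcodes were Ccl20, Gsta3 (ratio 0.386, interval 0.274 to 0.528) and Cab39 (ratio 0.363, interval 0.156 to 0.718). Ccl20, a chemokine gene, had 0 UMIs, against 453 in barcodes with none, which is 2.60-fold lower at the floor of 3 UMIs. Spats2l had a ratio of 0.397 (interval 0.128 to 0.930) and Dgkd of 0.129 (interval 0.00327 to 0.725), and Stk17b had 0 UMIs in 4-gene barcodes, against 261 in barcodes with none.

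The direct comparison was that of Ptprn-only with 4-gene barcodes. Of 84 genes with enough UMIs, 5 were higher (5.95%) and 6 lower (7.14%) in Ptprn-only barcodes. With the 3 ribosomal protein genes left out of the totals this split was 8 higher and 2 lower. Tm4sf20 was 2.87-fold higher (interval 1.67 to 5.25), Alpi 4.51-fold (interval 1.61 to 17.5), Slc39a10 3.83-fold (interval 1.34 to 15.0), Il1r1 2.95-fold (interval 1.12 to 9.82) and Pgap1, a GPI anchor remodelling gene, 2.61-fold (interval 1.26 to 6.10). Ptpn18 was lower, with 21 UMIs in Ptprn-only barcodes, against 118 in 4-gene barcodes (ratio 0.0974, interval 0.0581 to 0.156). Vil1 (ratio 0.471), Mob4 (0.458), Tcea1 (0.462) and Ndufs1 (0.461) were also lower. Map2 had 0 UMIs in Ptprn-only barcodes, against 9 in 4-gene barcodes (upper bound of the ratio 0.277). It was 5.48-fold lower at the floor of 3 UMIs, with too few UMIs in all to be counted.

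This contrast depended on which 4-gene barcodes were in it. Without the Cryba2-only barcodes 6 genes were past 2-fold in place of 11, and 4 of them were among the 11. The 5 barcodes with 1 Resp18 UMI and Ptprn had 13, 8, 8, 7 and 6 Ptprn UMIs, so they hold 5 of the 6 highest Ptprn counts of the table. Set against the Ptprn-only barcodes, they had 1 of 60 genes higher (1.67%), Mob4 at 2.20-fold (interval 1.06 to 4.32), and 0 lower. With them counted as Ptprn-only, 18 genes were past 2-fold, 11 higher and 7 lower.

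The same 5 barcodes had 2, 3, 1, 0 and 10 Tm4sf20 UMIs, at 6277 CPM, against 6289 CPM in Ptprn-only barcodes and 809 CPM in barcodes with none. Over barcodes with none, 9 of 260 genes were higher (3.46%) and 1 lower (0.385%). The higher ones included Tm4sf20 (ratio 7.76, interval 4.38 to 12.8), Snhg6 (ratio 3.06, interval 1.86 to 4.75), Arl4c (ratio 2.75, interval 1.56 to 4.48), Rdh10 (ratio 2.57, interval 1.92 to 3.37) and Epha4 (ratio 4.73, interval 1.88 to 9.90), whose 7 UMIs were in 2 of the 5 barcodes, 5 of them in 1. None of the 5 had a UMI of Fev, Scg2, Cryba2, Inpp5d or Map2.

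Resp18 was in 5 of the 6 barcodes with 6 or more Ptprn UMIs (median total 512), with exactly 1 UMI in each. The bound of 6 is the lowest Ptprn count of these 5 barcodes, so this is a description of them and no comparison. The same bound keeps them out of the barcodes with 1 to 5 Ptprn UMIs, so the share there is a description too. Among the barcodes with 1 to 5 Ptprn UMIs, 4 of 34 had Resp18 (11.8%, interval 3.30% to 27.5%; median total 376), and these 4 were the Resp18-rich ones. Among the 1420 barcodes without Ptprn, 5 had Resp18 (0.352%, interval 0.114% to 0.820%; median total 277). The part of the barcode total in this overlap was not tested.

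The Resp18-rich barcodes differed more from the Ptprn-only ones. Of 58 genes with enough UMIs, 6 were higher (10.3%) and 6 lower (10.3%) in the Resp18-rich barcodes. Itm2c was 6.52-fold higher (interval 3.86 to 10.7), at 27335 CPM, against 4193 CPM in Ptprn-only barcodes. Clk1 was 5.53-fold higher (interval 2.13 to 12.9), 1110058L19Rik 5.27-fold, Unc50 4.44-fold and Aamp 2.72-fold. Tm4sf20, Gsta3 and Rdh10 had 0 UMIs in the Resp18-rich barcodes and were 1.84-fold, 3.09-fold and 4.38-fold lower at the floor of 3 UMIs. The upper bounds of their ratios were 0.683, 0.403 and 0.283. Rpl7 (ratio 0.429), Eef1b2 (ratio 0.490), both genes of the translation machinery, and Idh1 (ratio 0.256) were lower too. The median total was 187 UMIs in Resp18-rich and 400 in Ptprn-only barcodes, and its part in these ratios was not tested.

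**Figure D3:**
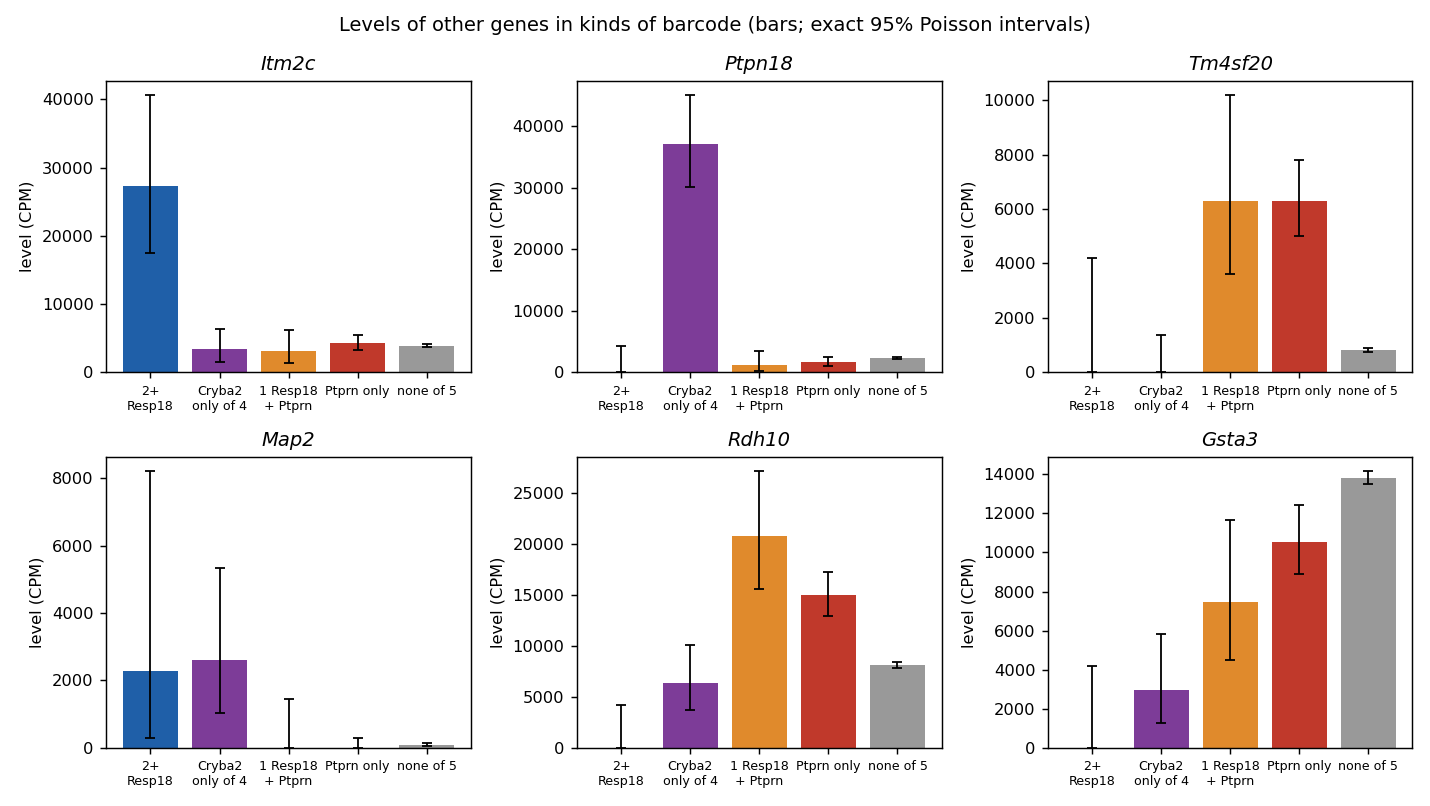
Levels of 6 other genes (CPM over all genes but the 5; bars with exact 95% Poisson intervals) in 4 kinds of barcode and in the 1405 barcodes with none of the 5. Itm2c is at 27335 CPM in Resp18-rich, Ptpn18 at 37078 CPM in Cryba2-only, and Tm4sf20 at 6277 and 6289 CPM in the 2 kinds with Ptprn.

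The genes differed in how their levels went with the number of Ptprn UMIs. In barcodes without the other 4 genes, Tm4sf20 was at 809 CPM with 0 Ptprn UMIs (interval 726 to 899.5), 3968 CPM with 1 (interval 2516 to 5954) and 8068 CPM with 2 or more (interval 6171 to 10363). Of the 61 Tm4sf20 UMIs with 2 or more, 19 were in 1 barcode, and the level without it was not computed. Arl4c was at 2286, 3106 and 8200.0 CPM in the same order, where the level with 1 Ptprn UMI (interval 1841 to 4908) overlapped that with 0 (interval 2144 to 2435). Slc39a10 was at 571, 1725 and 2381 CPM, and Rdh10 at 8089, 14493 and 15342 CPM. Il1r1 was at 771, 2588 and 1587 CPM, and Snhg6 at 2562, 6384 and 6084 CPM, both highest with 1. For Slc39a10, Rdh10, Il1r1 and Snhg6 the intervals with 1 and with 2 or more overlapped. The median totals were 277, 406.5 and 388 UMIs.

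**Figure D4:**
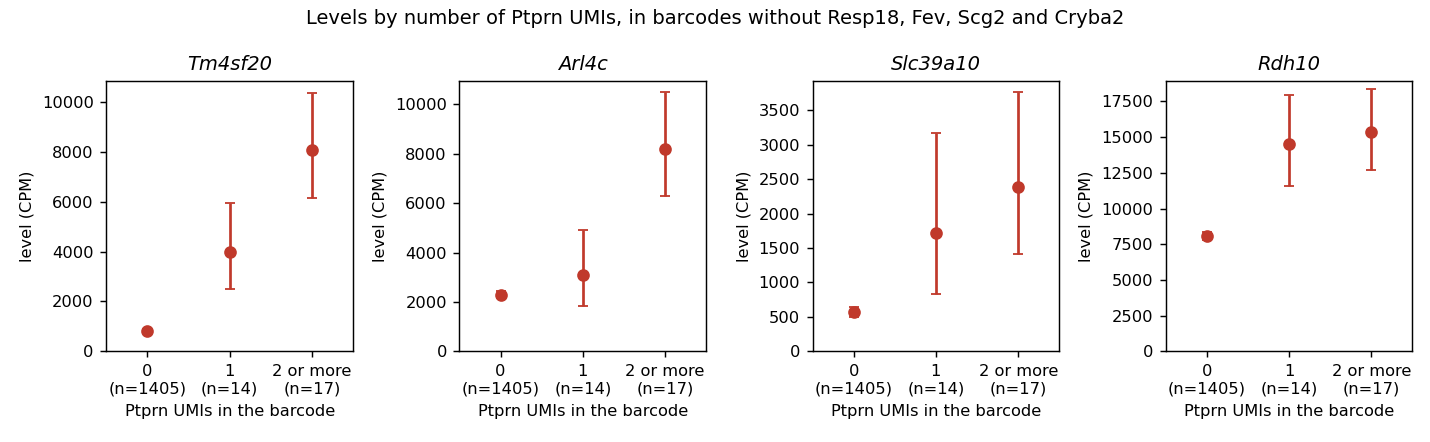
Levels of Tm4sf20, Arl4c, Slc39a10 and Rdh10 (CPM; points with exact 95% Poisson intervals) in barcodes with 0, 1 and 2 or more Ptprn UMIs and none of Resp18, Fev, Scg2 and Cryba2 (1405, 14 and 17 barcodes). Tm4sf20 and Arl4c are highest with 2 or more, at 8068 and 8200.0 CPM, with 19 of the 61 Tm4sf20 UMIs there in 1 barcode.

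The ratios were also taken within bands of the barcode total, in which Tm4sf20 varied less than Arl4c. Tm4sf20 was higher in Ptprn-only barcodes over those with none in each band of totals: 7.65-fold under 250 UMIs (3 Ptprn-only barcodes, interval 1.54 to 23.3), 5.27-fold from 250 to under 450 (16 barcodes, interval 3.35 to 7.98) and 9.92-fold from 450 up (12 barcodes, interval 6.99 to 14.0). For Arl4c the ratios were 0.524 (interval 0.0132 to 2.94), 1.74 (interval 1.08 to 2.67) and 5.61 (interval 4.09 to 7.60). For Slc39a10 they were 10.9, 4.36 and 2.42. In the same bands Ptpn18 in Cryba2-only barcodes had ratios of 21.6, 15.6 and 6.27, from 5, 4 and 1 barcodes.

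Seen from the other side, Ptprn was in 19 of 85 barcodes with 2 or more Tm4sf20 UMIs (22.4%, interval 14.0% to 32.7%; median total 385), against 21 of 1375 with fewer (1.53%, interval 0.948% to 2.33%; median total 275). It was in 19 of 215 barcodes with 2 or more Arl4c UMIs (8.84%, interval 5.40% to 13.5%; median total 300), against 21 of 1245 (1.69%, interval 1.05% to 2.57%; median total 277). Tm4sf20 and Arl4c were already higher in Ptprn-only barcodes, and their bounds were chosen after the values were seen. These shares thus describe the same overlap again and are no comparison. Ptprn was in 1 of 43 barcodes with a UMI of Sgol2, a gene of dividing cells (2.33%, interval 0.0589% to 12.3%; median total 460), and in 1 of 27 with 5 or more Ccl20 UMIs (3.70%, interval 0.0937% to 19.0%; median total 356). Cryba2 was in 0 of the 85 barcodes with 2 or more Tm4sf20 UMIs, for which the upper Clopper-Pearson bound is 4.25%, and Resp18 in 3 (3.53%).

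Among 14 listed membrane and signalling genes of endocrine or nerve cells, all 14 have a row in the table and 6 had enough UMIs. The list was chosen with earlier results of these data known, so it is no independent evidence. In Resp18-rich barcodes over those with none 2 were higher, Itm2c and Map2, and 0 lower, beside 7.69% and 0.769% of all genes compared. The median ratio was 3.02, against 0.740 over all genes, but it rests on few UMIs. It lies between the ratios of Ngef, with 1 UMI, and Klf7, with 2 UMIs, while Nrp2 and Epha4 had 0. In the 5 barcodes with 1 Resp18 UMI and Ptprn 1 was higher, Epha4, and 0 lower, beside 3.46% and 0.385%, with a median of 0.688, against 0.753. In Cryba2-only barcodes 2 were higher, Map2 and Klf7 (ratio 2.98, interval 1.09 to 6.57), and 0 lower, beside 5.36% and 1.15%, with a median of 1.71, against 0.827. In Ptprn-only barcodes 0 were higher and 1, Klf7, was lower, beside 4.21% and 4.6%, with a median of 0.994, against 0.830. Slc4a3, an anion exchanger gene of the list with 23 UMIs in all, had 0 UMIs in both the Ptprn-only and the 4-gene barcodes.

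A list of 14 gland cell genes described in these same data, and so no independent evidence, had 3 higher genes (Tm4sf20, Arl4c and Il1r1) and 1 lower gene (Fn1) in Ptprn-only barcodes over those with none, beside 4.21% and 4.6% of all genes compared. In 4-gene barcodes it had 1 higher and 2 lower, beside 6.13% and 2.3%. In Resp18-rich barcodes 0 were higher and 2 lower, beside 7.69% and 0.769%, and in Cryba2-only barcodes 0 higher and 2 lower, beside 5.36% and 1.15%. The listed markers of fibroblasts, muscle, T cells and myeloid cells with a row in the table had 0 UMIs in both the Ptprn-only and the 4-gene barcodes. Tuft marker UMIs summed to 0 in Resp18-rich, 3 in the 5 barcodes with 1 Resp18 UMI and Ptprn, 109 in Cryba2-only and 21 in Ptprn-only barcodes, or 0, 1177, 40415 and 1572 CPM, against 2366 CPM in barcodes with none.

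The pattern of each of the 5 over barcodes was set against that of 272 genes by the correlation of Pearson residuals over 1388 barcodes with at least 100 UMIs. Only genes seen in at least 20 barcodes were candidates, so Resp18, Fev, Scg2 and Cryba2 were not set against each other, and the order below holds within that limit. The barcodes come from 1 pooled table and differ in depth, so these values are descriptions. Among these candidates Resp18 was most like Ptprn (r = 0.411), Itm2c (0.201) and Map2 (0.169). Without its 3 highest barcodes Ptprn was still first (0.368), but Inpp4a (0.103) and Ormdl1 (0.0958) took the places of Itm2c and Map2. Cryba2 was most like Ptpn18 (0.370), then Map2 (0.244). Of the candidates, Ptprn was most like Tm4sf20 (0.265, and 0.262 without its 3 highest barcodes), then Snhg6 (0.176) and Dst (0.172), all below its value with Resp18. Fev was nearest to Map2 (0.210) and Ptprn (0.199), and Scg2 to Ptprn (0.230), while all barcodes of both also held Resp18.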

How the data were processed

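The deposited values are raw whole-number counts in 1 table for the series, read here as UMI counts because the submitters' processing notes name Cell Ranger. The notes also name Seurat 2.3.0 and the build mm10, and say nothing of filters. Of the 779 gene symbols, 711 matched GENCODE vM21 on chromosome 1, and other chromosomes were not searched. The last row was incomplete and left out, and 0 value columns were unused.

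Counts were summed over barcodes. Levels carry exact Poisson intervals, ratios conditional binomial intervals, and shares Clopper-Pearson intervals, all at 95%. A count of 0 was given a floor of 3 UMIs over the group, or 3 barcodes for a share. Folds at this floor leave out the counting error of the other group, so they can exceed what the interval of the ratio gives. Ratios leave the 5 genes out of the totals, while the CPM of the 5 use all UMIs. Residuals for likeness used an overdispersion of 100 and a limit of 10.

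The 5 genes and the lists were chosen with earlier results of these data known, and the split of 4-gene barcodes into 4 kinds after seeing their values, as were the bounds on Ptprn, Ptpn18, Arl4c and Tm4sf20 UMIs. Named genes are list members with at least 10 UMIs and, per comparison, up to 10 genes past 2-fold in each direction ranked by their interval bounds; genes named for the kinds of barcode were picked after seeing values. Some genes that this rule names are not reported here. Python 3.11.15, numpy 2.4.6, scipy 1.17.1, pandas 2.3.3 and matplotlib 3.10.9 were used, and the ratio step was tested on simulated data.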

Additional observations from a re-analysis of the deposited data

How the results depend on the processing

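No paired analysis was possible because the labels give 1 genotype and the barcodes carry no sample. With 1 pooled sample, no library could be left out, and counting intervals do not hold the spread between animals. The count of 22 genes past 2-fold in 4-gene barcodes over none became 14 without the Cryba2-only barcodes. The count of 11 in Ptprn-only over 4-gene barcodes became 19 with a minimum of 10 UMIs, 20 with 4-gene barcodes defined without Resp18, 6 without the Cryba2-only barcodes and 18 with the 5 barcodes of 1 Resp18 UMI and Ptprn counted as Ptprn-only. With 2 UMIs required to enter a group, the counts were 24, 16 and 12 for 4-gene over none, Ptprn-only over none and Ptprn-only over 4-gene barcodes, and 7 of 22, 12 of 23 and 2 of 11 genes were shared. Standardised for barcode totals, 20 of 22, 20 of 23 and 9 of 11 were shared.

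The share of 4-gene barcodes with Ptprn, 37.5%, became 64.3% without the Cryba2-only barcodes. Thinned to 100 UMIs, which left out 72 barcodes, the share of barcodes without the 4 genes that held Ptprn was 1.02%, against 2.16% unthinned. With the 3 ribosomal protein genes out of the totals the levels were 282 CPM for Resp18, 60.2 for Fev, 67.7 for Cryba2 and 425 for Ptprn. Without the 3 barcodes highest in each gene they were 33.8 CPM for Resp18, 2.25 for Fev, 0 for Scg2, 20.27 for Cryba2 and 189 for Ptprn.

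Of 442 recomputed ratios of named genes, 410 stayed within the interval, 27 moved and 5 changed direction. These 5 were 4-gene ratios over none that became 0: Inpp5d, Tm4sf20 and Epha4 with 2 UMIs required, and Tm4sf20 with 4-gene barcodes defined without Resp18 or with the 5 barcodes moved. These settings leave out the barcodes that held the gene's UMIs. The cause of the other moves was not tested.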
